A study of Mus musculus with 24 samples.

Results

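The comparison set TgCRND8 forebrain against control forebrain at 70 days of age, the youngest of 3 ages studied. Its members are the 8 arrays titled for day 70, of 24 in all: 4 from TgCRND8 mice and 4 from controls, 1 mouse per array. TgCRND8 mice carry a transgene of amyloid precursor protein (APP) labelled APPSwe/Ind, that is with the Swedish and Indiana mutations; the controls were their wild-type littermates without it. The labels give neither the promoter that drives the transgene nor the sex of the mice. Forebrain is what was left of each frozen brain once the olfactory bulb and the cerebellum with the brainstem had been cut off, so it holds cortex, hippocampus, striatum, thalamus and hypothalamus together. Affymetrix mouse arrays measured RNA as log2 signal per probe set, and each of 18193 genes was represented by its brightest probe set over all 24 arrays. In such bulk samples, fewer cells of a type and less RNA per cell cannot be told apart.

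APP is cut by beta-secretase and then by gamma-secretase to release amyloid-beta peptides, and the Swedish and Indiana mutations raise the amount of peptide and the share of its longer, more aggregating forms. TgCRND8 mice are known for early amyloid deposition, with plaques ringed by activated microglia and reactive astrocytes in older animals. The comparison at day 70 asked which genes differ in forebrain at the youngest age.

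No gene passed. Of 18193 genes, 0 (0%) had a Benjamini-Hochberg adjusted p under 0.05 by limma, and the smallest adjusted p was 0.653. At an unadjusted p under 0.05 there were 591 genes (3.25%). Of these, 267 (1.47%) were higher and 324 (1.78%) lower in TgCRND8. All 4 TgCRND8 arrays lay above all 4 controls for 200 genes (1.1%) and below them for 229 (1.26%), the arrangements for which an exact two-sided permutation of 8 arrays gives its smallest p of 0.0286. Differences were small: the median standard error of a difference was 0.0977 log2, and the median difference over all genes was -0.0031. All differences below are TgCRND8 minus control on the log2 scale with n = 4 mice per group, and no gene named below passed at day 70.

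**Figure D1:**
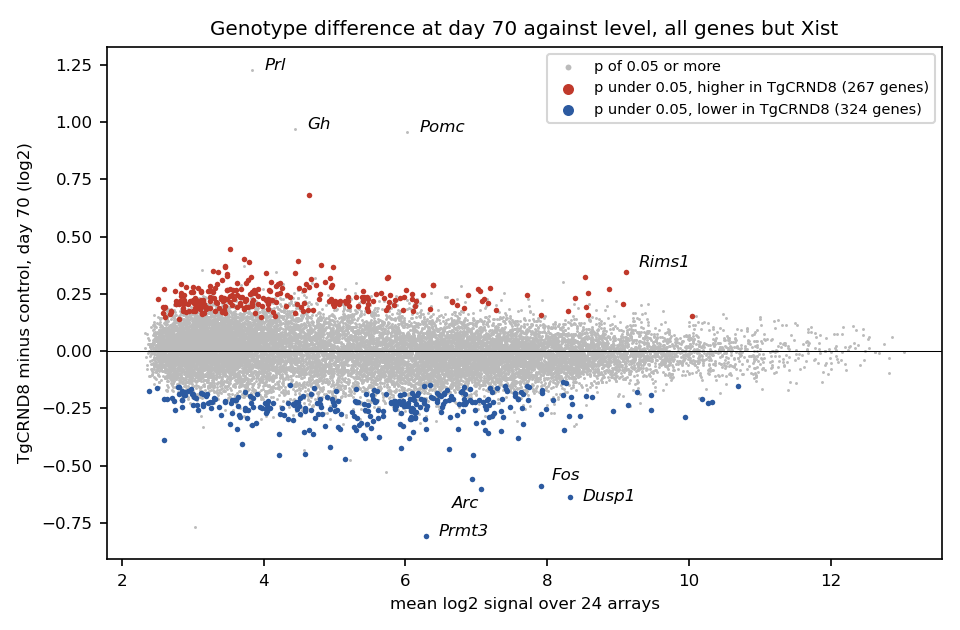
Genotype difference at day 70 (y axis, TgCRND8 minus control, log2) against the mean log2 signal over 24 arrays (x axis) for all genes but Xist; 1 point per gene, with the 267 genes higher and the 324 lower at an unadjusted p under 0.05 in red and blue. The red genes crowd at the dim end, where their median level was 3.84, while the blue ones had a median level of 5.71.

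The genes on the higher side were mostly dim. Their median level was 3.84 log2, against 5.71 for those on the lower side and 5.38 for all genes tested. With the dimmest 40% of genes left out, 98 were higher and 239 lower at an unadjusted p under 0.05. With each array centred on its median the split turned, to 337 higher and 259 lower. Without TgCRND8 array 2 it was 354 higher and 272 lower. Without Control array 4 and TgCRND8 array 1, which stood apart as described below, 170 were higher and 289 lower. The lower quartile of signal over all probe sets was 3.25 on the TgCRND8 arrays 1 and 4, and 3.15 to 3.23 on the other 6 arrays of day 70. The part of this in the higher genes was not tested.

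The arrays themselves were alike. Correlations over all genes had a median of 0.99573 within the groups and 0.99572 between them. Genes of forebrain neurons were bright on all 8 arrays (Camk2a from 10.64 to 10.95, Slc17a7 from 7.54 to 8.11, Gad1 from 10.06 to 10.56). Some genes of the parts cut away were dim. Gabra6 of cerebellar granule cells read 2.80 to 3.02, Tbx21 of the olfactory bulb 2.80 to 3.28 and Omp of the olfactory nerve 3.74 to 4.19. The cerebellum, olfactory bulb and brainstem lists had median levels of 4.14, 4.54 and 3.275, against 5.38 for all genes. Tph2, of the brainstem list, differed by -0.39 between the genotypes, or by -0.094 without Control array 3. The signal of actin at the 3′ end exceeded that at the 5′ end by 0.70 to 0.81 in controls and 0.74 to 0.86 in TgCRND8 arrays, a measure of RNA integrity that overlapped between the groups.

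Some arrays stood apart. Control array 3 had the lowest median correlation with the other arrays of day 70, 0.99477 against 0.99548 to 0.99661. Without it 812 genes had an unadjusted p under 0.05. Control array 4 was the only one of day 70 with low Xist, which is transcribed only where an X chromosome is silenced, at 3.26 against 9.57 to 9.79 on the other 7. Its Y-linked Eif2s3y read 5.05 against 2.39 to 2.73 elsewhere, so its sex-linked genes match a male and those of the other 7 females. TgCRND8 array 1 held the most pituitary hormone RNA: growth hormone (Gh) read 6.57, 3.79, 4.48 and 5.23 in the TgCRND8 arrays in order and 4.11, 4.18, 4.01 and 3.91 in controls. Prolactin (Prl) read 5.78, 3.37, 3.82 and 4.77 against 3.22, 3.25, 3.38 and 2.99. Pomc, made in the pituitary and in hypothalamic neurons, read 8.70, 5.54, 6.21 and 6.20 against 5.50, 5.40, 6.02 and 5.91. TgCRND8 array 1 was the highest for all 3, array 4 was the next for Gh and Prl, and array 2 lay among or below the controls. The mean of the pituitary genes relative to the control average was 1.28, -0.0368, 0.278 and 0.57 in the TgCRND8 arrays, so arrays 3 and 4 carried some of this signal too. Of the 7 pituitary hormone genes measured, 6 were higher and the list median was 0.37, the farthest from 0 of the 51 lists examined. The main gene list counts are therefore also given without Control array 4 and TgCRND8 array 1 together.

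**Figure D2:**
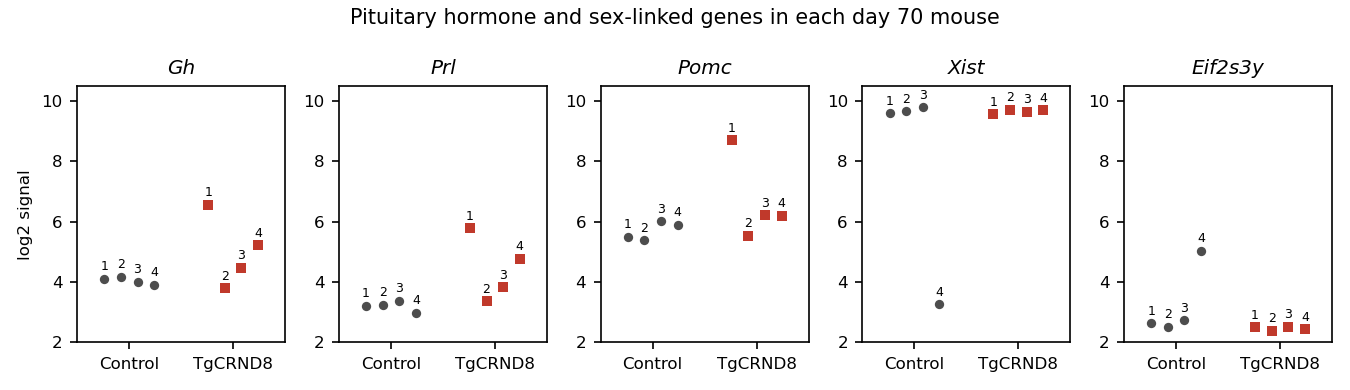
Log2 signal (y axis) of 3 pituitary hormone genes and of the sex-linked genes Xist and Eif2s3y in each day 70 mouse; digits are mouse numbers within the group. TgCRND8 mouse 1 is highest for Gh, Prl and Pomc, and control mouse 4 has low Xist (3.26) and raised Eif2s3y (5.05).

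The mouse App gene did not separate the genotypes. App read 12.06, 11.90, 11.57 and 12.08 in the controls and 11.84, 11.80, 11.85 and 11.75 in TgCRND8, a difference of -0.09 (standard error 0.108). The groups overlapped, and the control range enclosed all TgCRND8 values. Whether the probe sets bind RNA of the transgene was not known, so App is no check of the genotype labels. Prnp, whose promoter drives many such transgenes, read 11.93, 11.88, 11.75 and 12.02 against 11.91, 11.94, 11.92 and 11.83. Among 23 genes of the App family, its secretases and adaptors, 17 were lower and 6 higher, the median was -0.033 and 0 had an unadjusted p under 0.05. Without Control array 1, 11 of 23 were lower and the median was 0.0034, and quantile normalization or centring on the median gave 13 lower. The beta-secretase gene Bace1 differed by -0.07 and Psen2, of the gamma-secretase core, by -0.01. The 15 genes of peptidases that degrade amyloid-beta had a median of 0.0036, and the neprilysin gene Mme differed by -0.01.

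Prmt3, which encodes an arginine methyltransferase that acts on a ribosomal protein, had the smallest p of all genes. Its signal was 6.77, 6.77, 6.62 and 6.75 in controls and 5.83, 6.16, 6.11 and 5.58 in TgCRND8. Every TgCRND8 array lay below every control, and the TgCRND8 arrays spread more widely. The difference was -0.81 (standard error 0.161; adjusted p = 0.653 by limma), which put the TgCRND8 mean at 57.2% of the control mean on the linear scale. At day 80 the difference was -0.29 and at day 150 it was -0.68. Leaving out 1 array of day 70 at a time gave values from -0.89 to -0.69. The 4 dimmer Prmt3 probe sets differed by -0.33, 0.02, 0.12 and -0.22, so the mean of all 5 differed by -0.24. The other 7 arginine methyltransferase genes of the list had an unadjusted p of 0.05 or more.

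The measured genes next to Prmt3 on chromosome 7 were read in order of position, a choice made after the values were seen. The next gene on one side, Slc6a5, encodes the glycine transporter of brainstem inhibitory neurons. It was dim and read 3.72, 3.29, 3.31 and 3.02 in controls against 3.76, 3.69, 3.90 and 3.76 in TgCRND8, a difference of 0.45 with control array 1 inside the TgCRND8 range; it was 0.16 at day 80 and 0.42 at day 150. The gene after it, Nell1, a secreted protein of the thrombospondin family, read 7.54, 7.55, 7.41 and 7.84 against 7.36, 7.29, 7.39 and 6.91. All 4 TgCRND8 arrays were below the controls, with a difference of -0.35, against -0.04 at day 80 and 0.03 at day 150. On the other side Dbx1 had a mean of 3.14 in both groups and Nav2 differed by -0.07. Over the whole of chromosome 7, 3.11% of 1413 genes had an unadjusted p under 0.05, within the 2.58% to 4.05% of the other autosomes and close to the 3.25% of all genes.

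Among genes at or above the median level whose groups did not overlap, Rims1 had the largest difference on the higher side. It encodes a scaffold of the presynaptic active zone, where vesicles dock. Controls read 9.10, 9.07, 8.90 and 8.95 and TgCRND8 arrays 9.27, 9.35, 9.38 and 9.40, with no overlap and a difference of 0.35 (standard error 0.0855). A second Rims1 probe set differed by 0.26. The difference was -0.06 at day 80 and 0.49 at day 150, where it passed (adjusted p = 0.00762 by limma), as did 22 genes (0.121%) in all. Of 26 presynaptic release genes measured, 15 were higher and 11 lower, with a median of 0.019 that was -0.077 without Control array 3 and 0.10 without Control array 1. Syt2, the calcium sensor of fast-releasing synapses, differed by -0.38 and Vamp1, a vesicle fusion protein, by -0.26.

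Of the other genes with the smallest p on the higher side, the transferrin receptor gene Tfrc, which takes iron into cells, was the brightest. It read 8.77, 8.95, 8.62 and 8.74 in controls and 9.02, 9.19, 8.95 and 9.002 in TgCRND8, a difference of 0.27, and control array 2 equalled the lowest TgCRND8 array to the second decimal. The interferon-inducible GTPase gene Igtp read 4.66, 4.597, 4.66 and 4.78 against 4.89, 4.75, 4.95 and 5.10, a difference of 0.25. That difference was not shared by the list: 11 of 20 interferon-stimulated genes were lower, the median was -0.022, and Bst2 differed by -0.19. The complement regulator gene Cd46 read 4.72, 4.77, 4.78 and 4.71 against 5.13, 5.35, 4.91 and 5.07. The remainder were dim (mean levels under 5 log2): 1700034H15Rik, the cytoskeletal linker gene Gas2l2, Glycam1, Akap4, Pdzd3, Nat8f3 and Misp3 differed by 0.29 to 0.40, and Misp3 by 0.20 without TgCRND8 array 1. In the group that Rims1 led, Prelid3a, Lin7a, Cc2d1b and 4933439C10Rik followed, with differences of 0.29, 0.25, 0.25 and 0.25.

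On the lower side the smallest p after Prmt3 belonged to Slc7a2, which encodes a carrier of arginine and lysine. It read 6.19, 6.20, 6.13 and 6.15 in controls and 5.63, 5.96, 5.92 and 5.86 in TgCRND8, a difference of -0.33 (standard error 0.0735). The mitochondrial calcium-binding protein gene Efhd1 read 7.14, 7.11, 7.05 and 7.47 against 6.68, 6.91, 6.90 and 6.48, a difference of -0.45. Controls were tight except array 4, and no array crossed between the groups. Pop4, a subunit of the RNase P and MRP ribonucleases, read 7.29, 7.24, 7.24 and 7.38 against 6.76, 6.95, 6.83 and 6.37, a difference of -0.56. Genes that respond to growth factors and stress were among the rest: Csrnp1 differed by -0.38, Ddit4, an inhibitor of mTOR signalling, by -0.38, and the phosphatase gene Dusp5 by -0.34. Igfbp2, which binds insulin-like growth factors, read 6.87, 7.0001, 7.22 and 7.05 against 6.70, 6.70, 6.79 and 6.59, a difference of -0.34. Irs1, the docking protein of the insulin receptor, differed by -0.24, and 14 of 22 insulin and IGF signalling genes were lower with a median of -0.05. Abca8a, Klk6 and Sox6, genes of the oligodendrocyte lineage, differed by -0.42, -0.47 and -0.25, and Plcd4 by -0.30.

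**Figure D3:**
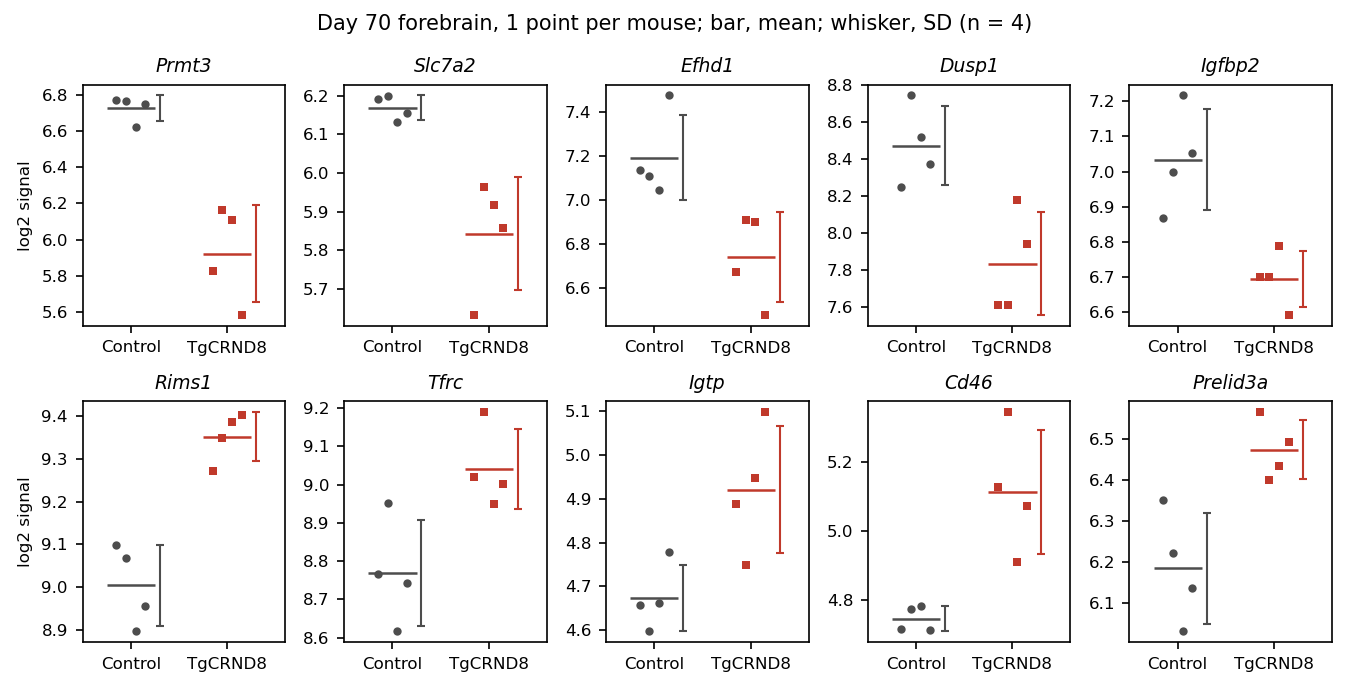
Log2 signal (y axis) of 5 genes that were lower and 5 that were higher in TgCRND8, 1 point per mouse, with the mean and SD of each group of 4. The groups do not overlap except for Tfrc and Igtp, and the largest difference of means is that of Prmt3 (5.92 against 6.73).

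Apart from the sex-linked genes, myelin genes had the lowest median of the 51 lists. Oligodendrocytes wrap axons with membrane built from a few abundant proteins and from galactolipids, and their precursors persist in the adult brain. Of 26 mature oligodendrocyte and myelin genes measured, 23 were lower and 3 higher in TgCRND8, with a median of -0.16 against -0.0031 over all genes. At an unadjusted p under 0.05, 6 were lower and 0 higher, against 1.78% lower and 1.47% higher of all genes, and 20 did not reach it.

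Among structural myelin genes, Mag, the adhesion protein of the inner myelin layer, read 8.55, 8.50, 8.08 and 8.65 in controls and 8.40, 8.05, 8.06 and 7.88 in TgCRND8, a difference of -0.35 (standard error 0.149). The groups overlapped, with control array 3 below TgCRND8 array 1. The proteolipid gene Mal read 9.46, 9.37, 9.43 and 9.39 against 9.34, 9.14, 9.29 and 8.93, and the tetraspanin gene Tspan2 read 9.24, 9.22, 9.13 and 9.23 against 9.01, 9.02, 8.96 and 8.79. Both separated, with differences of -0.23 and -0.26 and TgCRND8 array 4 lowest each time. Without that array Mal differed by -0.15. A second Mal probe set differed by -0.11, and further Tspan2 probe sets by -0.06 and -0.17. The mean of all probe sets differed by -0.17 for Mal and -0.16 for Tspan2. Mbp, the basic protein that compacts myelin, differed by only -0.09 (from 12.91 to 12.82), near the top of the measured range. Its dimmer probe sets, at mean levels of 12.55 down to 7.44, differed by -0.18 to -0.003. Those at 8.06 and 7.44 differed by -0.003 and -0.07. Mog, on the outer surface, differed by -0.21.

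Among enzymes and other members, Fa2h, which hydroxylates the fatty acids of myelin lipids, differed by -0.27 and Plekhh1 by -0.31. Bcas1, a gene of newly myelinating cells, differed by -0.21 and by -0.13 without Control array 3, but its dimmer probe sets differed by 0.07 and 0.22 and the mean of the 3 by 0.03. The transcription factor gene Sox10, shared by precursors and mature cells, differed by 0.02 and Opalin by 0.12. Of 13 precursor genes, 11 were lower with a median of -0.10, and the differences ran from -0.26 to 0.27. At an unadjusted p under 0.05, 2 were lower and 0 higher, against 1.78% and 1.47% of all genes. The groups did not overlap for 1 lower and 1 higher member, against 1.26% and 1.1% of all genes. Sox6, which holds precursors undifferentiated, read 6.34, 6.25, 6.27 and 6.24 against 6.01, 5.98, 5.99 and 6.11 without overlap. Its dimmer probe sets differed by -0.05, -0.34 and 0.11, and the mean of all by -0.13. The lineage factor gene Olig2 differed by -0.26. Pdgfra, the receptor that marks precursors, differed by -0.24 and Cspg4 by 0.02.

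By mouse, the mean of the 26 myelin genes relative to the control average was -0.0423, -0.0316, 0.0395 and 0.0344 in the controls and -0.0533, -0.15, -0.158 and -0.257 in TgCRND8. All TgCRND8 arrays were below all controls, array 1 by little and array 4 by the most. Thalamus genes were mostly lower too: 13 of 15 were lower with a median of -0.15. Their mean was -0.0424, -0.0592, -0.0534 and 0.155 in controls and 0.0255, -0.212, -0.00411 and -0.323 in TgCRND8. Rgs16, Gbx2 and Zic1, all at an unadjusted p under 0.05, differed by -0.36, -0.24 and -0.28, the last by -0.14 without Control array 4. Zic1 was also the lowest member of the cerebellum list. Its second probe set, at a mean level of 7.23, differed by -0.19. TgCRND8 arrays 2 and 4 were low for thalamus genes and array 1 was not, while control array 4 was high. The part of the amount of thalamus in the myelin difference was not tested. Without Control array 4 and TgCRND8 array 1, 25 of 26 myelin genes were lower with a median of -0.19, and 12 of 15 thalamus genes with a median of -0.15. Without TgCRND8 array 4 the thalamus median was -0.085 and without Control array 4 it was -0.09.

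The median of the myelin genes lay closer to 0 at the later ages, a change that was not tested over the list. The median genotype difference of the same 26 genes was -0.073 at day 80, with 18 lower, and -0.027 at day 150, with 15 lower. Control mice of day 150 in turn differed from controls of day 70 by a median of -0.19. The day 70 controls enter both this age difference and the day 70 genotype difference.

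**Figure D4:**
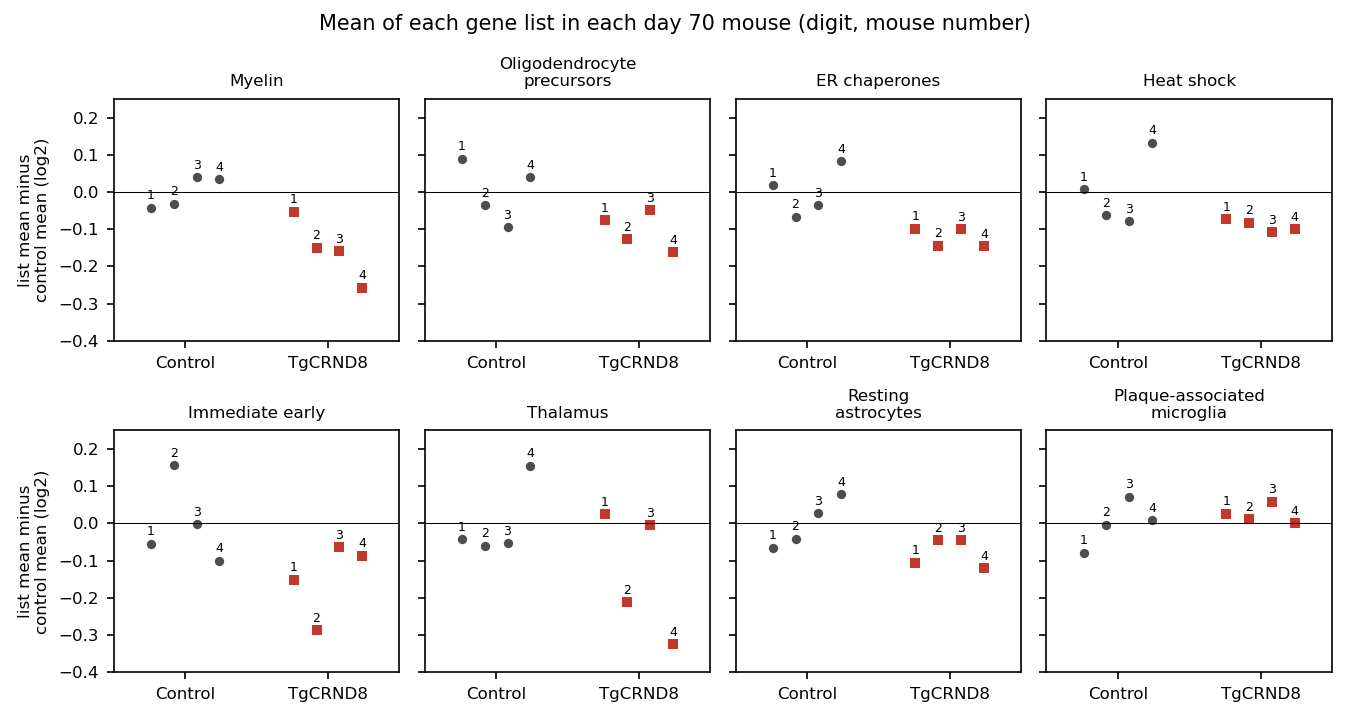
Mean over the measured genes of 8 lists in each day 70 mouse, as log2 difference from the control average (y axis); digits are mouse numbers. The myelin and ER (endoplasmic reticulum) chaperone means of all 4 TgCRND8 mice lie below those of the controls, and the thalamus means of TgCRND8 mice 2 and 4 are low (-0.212 and -0.323).

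Chaperones of the endoplasmic reticulum leaned the same way. The endoplasmic reticulum folds secreted and membrane proteins with the help of chaperones such as BiP, the product of Hspa5, and unfolded protein raises their transcription through the factors ATF6 and XBP1. These factors bind the endoplasmic reticulum stress element, CCAAT and CCACG set apart by 9 bases of any kind, which was defined on the promoters of such genes. The promoters of Hspa5 and Creld2, the members of the list with both this element and an unadjusted p under 0.05, hold 1 match each in the 250 bases before the start. They are shown 5′ to 3′ in the direction of the gene, from RefSeq on build GRCm38.p6, with the element in capitals. In Creld2 the element lies on the opposite strand, so the capitals show its reverse complement. Its last base is 47 bases before the start in Hspa5 and 108 in Creld2. Hspa5 lies at chr2:34771840-34772089 on the plus strand and Creld2 at chr15:88819396-88819645 on the plus strand.
Hspa5: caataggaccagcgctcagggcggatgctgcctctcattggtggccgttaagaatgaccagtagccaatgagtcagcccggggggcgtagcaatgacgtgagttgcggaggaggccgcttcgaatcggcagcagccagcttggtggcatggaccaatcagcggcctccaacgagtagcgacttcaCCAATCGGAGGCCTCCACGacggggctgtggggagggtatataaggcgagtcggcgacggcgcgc
Creld2: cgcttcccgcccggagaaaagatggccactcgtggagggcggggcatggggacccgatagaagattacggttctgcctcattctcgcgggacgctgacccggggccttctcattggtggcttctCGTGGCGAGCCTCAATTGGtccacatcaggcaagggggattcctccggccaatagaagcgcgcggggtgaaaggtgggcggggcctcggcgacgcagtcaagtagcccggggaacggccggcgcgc
Searched on both strands, the element was found in 8 of the 24 list genes with a promoter in the table (Calr, Canx, Creld2, Dnajc3, Hsp90b1, Hspa5, Pdia6 and Syvn1). Of all 27018 genes 35 (0.13%) held it in any promoter; by promoter it was 37 of 32841 (0.113%). A match is a description of the sequence and does not show binding here.

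Hspa5 read 10.10, 9.92, 10.06 and 10.24 in controls and 9.86, 9.76, 9.72 and 9.83 in TgCRND8, a difference of -0.29 (standard error 0.132), and the groups did not overlap. Its second probe set differed by -0.34 and its dimmest by -0.05. Creld2, a folding factor of the same compartment, read 5.84, 5.72, 5.72 and 5.98 against 5.47, 5.44, 5.25 and 5.61, also without overlap, a difference of -0.37 (standard error 0.121). Dnajb11, a partner of BiP, differed by -0.17 and Ppp1r15a, which ends the translation block of the stress response, by -0.20, or -0.12 without Control array 3. The other 6 genes with the element gave Calr -0.16, Canx 0.00, Dnajc3 -0.14, Hsp90b1 -0.11, Pdia6 -0.14 and Syvn1 -0.17. The regulators differed less evenly, with Xbp1 at -0.23, Atf6 at -0.10, Atf4 at -0.03 and Eif2ak3 at 0.08.

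Over the list, 24 of 28 genes were lower with a median of -0.14, and 4 lower and 0 higher had an unadjusted p under 0.05, against 1.78% and 1.47% of all genes. The list mean by mouse was 0.0184, -0.0659, -0.0346 and 0.0821 in controls and -0.0988, -0.144, -0.0992 and -0.145 in TgCRND8. The TgCRND8 values were close together and below all controls, and control array 4 was the highest. Without Control array 4 the median was -0.083 with 24 of 28 lower, and without that array and TgCRND8 array 1 it was -0.091 with 23 lower. At day 80 the median was 0.015 and at day 150 it was 0.022.

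The median of the cytosolic heat shock genes moved with the same control array, though most members stayed lower without it. Of 20 measured, 18 were lower with a median of -0.078, and the mean by mouse was 0.00711, -0.0619, -0.0779 and 0.133 in controls against -0.0738, -0.0825, -0.108 and -0.0992 in TgCRND8. Control array 4 stood above the rest. Among the controls only array 3 (-0.0779) lay below a TgCRND8 array, array 1 (-0.0738), and every other control lay above all TgCRND8 arrays. Without Control array 4 the median was -0.046 with 16 of 20 lower. Without that array and TgCRND8 array 1 the median was -0.026 with 16 lower. Cryab, a small heat shock protein of oligodendrocytes and astrocytes, read 8.06, 8.05, 8.13 and 8.39 against 7.97, 7.92, 7.92 and 7.71, a difference of -0.27 without overlap. Hspa1b, the inducible HSP70, read 5.70, 5.44, 5.05 and 5.94 against 5.36, 5.51, 5.33 and 5.28.

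Immediate early genes are transcribed within minutes of neuronal activity, in part through the factor CREB, which binds the cyclic AMP response element TGACGTCA. Of 32 measured, 23 were lower and 9 higher with a median of -0.14; 5 lower and 1 higher had an unadjusted p under 0.05, against 1.78% and 1.47% of all genes. Dusp1, a phosphatase that turns off MAP kinases, was the list gene with the smallest p. Its promoter is shown because Dusp1 and Btg2 were the only ones of 24 list genes matched to the table (8.33%) with this element in any promoter, against 1.77% of 27018 genes; by promoter, 1.55% of all 32841 held it. The element, in capitals, is a palindrome and ends 136 bases before the start; the window is chr17:26508473-26508722 on the minus strand (GRCm38.p6).
Dusp1: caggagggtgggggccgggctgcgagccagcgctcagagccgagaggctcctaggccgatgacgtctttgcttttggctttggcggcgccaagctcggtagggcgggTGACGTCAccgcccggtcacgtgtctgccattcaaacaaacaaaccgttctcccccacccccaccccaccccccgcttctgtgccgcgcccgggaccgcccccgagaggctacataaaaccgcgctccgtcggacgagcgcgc

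Dusp1 read 8.25, 8.74, 8.52 and 8.37 in controls and 7.61, 7.61, 8.18 and 7.94 in TgCRND8, without overlap. The difference was -0.64 (standard error 0.179; adjusted p = 0.9997 by limma), which put the TgCRND8 mean at 64.3% of the control mean on the linear scale. Btg2, an antiproliferative gene, differed by -0.12. Arc, which trims AMPA receptors from synapses, read 6.97, 7.67, 7.23 and 6.67 against 6.51, 6.10, 6.78 and 6.73, a difference of -0.60. Fos, a subunit of the AP-1 transcription factor, read 7.39, 8.34, 8.15 and 7.47 against 7.22, 6.44, 7.56 and 7.76, a difference of -0.59. For both genes the groups overlapped, control array 2 was highest and TgCRND8 array 2 lowest.

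Junb, another AP-1 subunit, differed by -0.43 and Gadd45b by -0.21, whereas Jun itself was higher (7.77, 7.59, 7.46 and 7.61 against 7.999, 7.88, 7.87 and 7.67, a difference of 0.25). Egr1, the brightest gene of the list, differed by -0.20 and the activity-dependent growth factor gene Bdnf by 0.02. The list mean by mouse was -0.0538, 0.156, -0.00255 and -0.0998 in controls and -0.151, -0.286, -0.0633 and -0.0867 in TgCRND8, so the groups overlapped. Without Control array 2 Arc differed by -0.42, and Junb by -0.29. Without TgCRND8 array 2 Fos differed by -0.32 and Egr1 by -0.094. Without Control array 4 and TgCRND8 array 1, 26 of 32 were lower with a median of -0.15. At day 80 the median was -0.051 and at day 150 -0.078.

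Stress hormone and clock genes had small list medians. Of 20 glucocorticoid response genes, 13 were lower with a median of -0.013. It ran from -0.069 without TgCRND8 array 3 to 0.0034 without TgCRND8 array 2. At an unadjusted p under 0.05, 3 were lower and 0 higher, against 1.78% and 1.47% of all genes. The list mean by mouse was -0.017, -0.027, 0.028 and 0.017 in controls and -0.072, -0.12, 0.0025 and -0.10 in TgCRND8. Only TgCRND8 array 3 lay among the controls, and the rest were below all of them. Ddit4, Nfkbia and Arrdc2 differed by -0.38, -0.23 and -0.28, while Fkbp5, the standard reporter of the receptor, differed by 0.04. Among 19 clock genes the median was -0.034, and Dbp, an output gene of the clock, read 8.81, 8.63, 8.47 and 8.90 against 8.45, 8.43, 8.43 and 8.38, a difference of -0.28 without overlap.

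Of the glial genes that mark plaques in older animals, Cst7, Trem2, Tyrobp and Gfap overlapped between the genotypes. Cst7, which encodes a protease inhibitor that plaque microglia switch on, read 2.87, 2.99, 2.95 and 3.02 in controls and 3.05, 3.04, 2.999 and 3.03 in TgCRND8, close to the floor of the arrays. Trem2, a lipid receptor of microglia, read 4.50, 4.70, 4.66 and 4.78 against 4.597, 4.63, 4.795 and 4.67, and its partner Tyrobp 6.86, 7.22, 7.65 and 6.92 against 7.13, 7.19, 7.46 and 7.49. The astrocyte filament gene Gfap read 6.89, 7.19, 7.58 and 7.68 against 7.29, 7.46, 7.50 and 7.49. Their differences of 0.07, 0.01, 0.16 and 0.10 compare with 1.59, 0.62, 1.31 and 1.42 at day 150. The difference itself grew from day 70 to day 150 by 1.52 for Cst7 and 1.32 for Gfap, the only 2 of 18193 genes (0.011%) to pass that test of change by limma (adjusted p = 2.98e-06 for Cst7 and 0.0053 for Gfap), and no gene passed from day 70 to day 80.

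Of 30 plaque-associated microglia genes, 17 were higher and 13 lower at day 70 with a median of 0.027, which became -0.019 without Control array 1 and 0.046 without Control array 4 and TgCRND8 array 1; at day 150 it was 0.35. At an unadjusted p under 0.05 there was 1 of 30, higher in TgCRND8 (1.47% of all genes), and 1 other did not overlap between the groups, also higher (1.1% of all genes). The first was the integrin gene Itgax, which differed by 0.21 with overlapping groups, by 0.095 without TgCRND8 array 1 and by 0.033 without Control array 4 and TgCRND8 array 1. The second was the growth factor gene Csf1, with a difference of 0.08. Vim, Mpeg1 and C1qa differed by 0.10, 0.16 and 0.12. Of 22 homeostatic microglia genes 14 were higher with a median of 0.053, and the purinergic receptor gene P2ry13 differed by 0.21, or 0.13 without TgCRND8 array 2. Resting astrocyte genes leaned lower, 19 of 21, but by a median of only -0.056. Without Control array 4 and TgCRND8 array 1 they were 14 of 21, with a median of -0.0057. Slc4a4, a bicarbonate transporter, and F3, tissue factor, differed by -0.20 and -0.35. Further Slc4a4 probe sets differed by -0.04, -0.09, -0.04 and 0.02, so that the mean of all differed by -0.07. F3 differed by -0.23 without TgCRND8 array 1 and by -0.14 without that array and Control array 4.

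**Figure D5:**
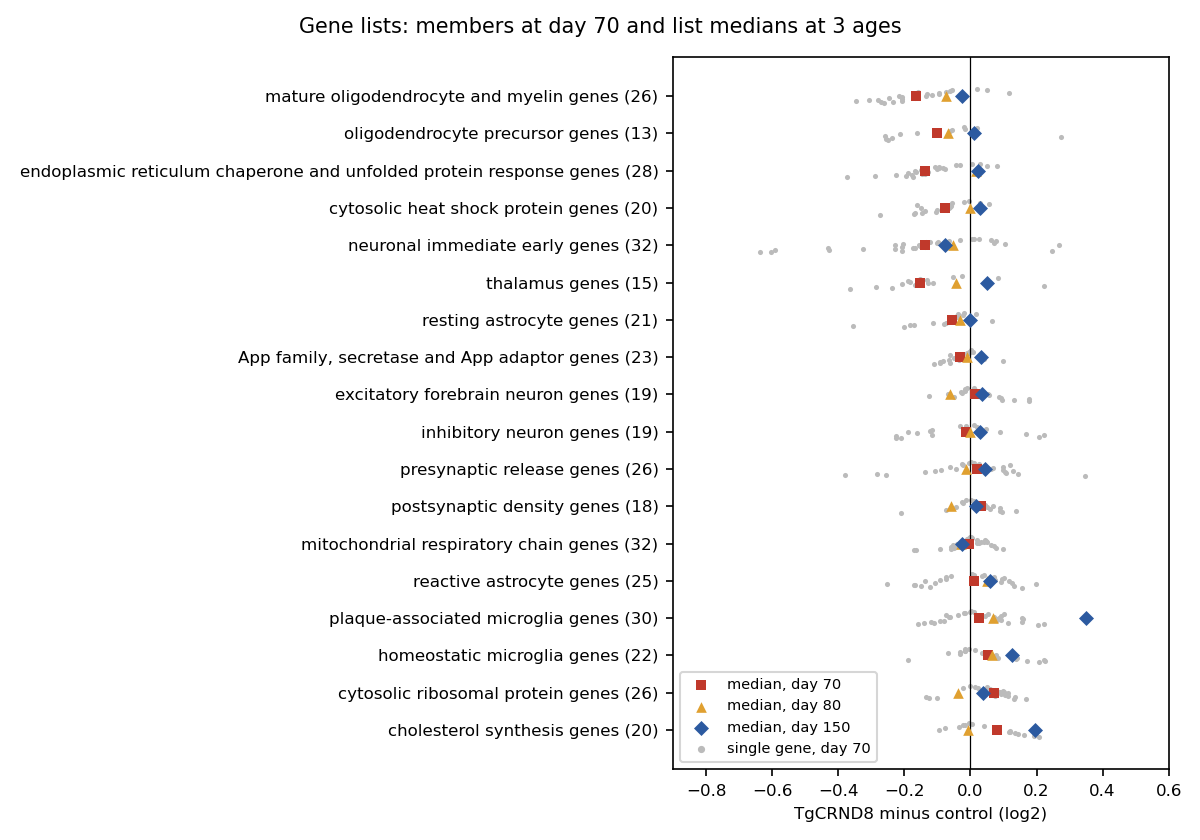
TgCRND8 minus control differences (x axis, log2) of the measured members of 18 gene lists at day 70 (grey points) and the list medians at days 70, 80 and 150; the number of measured genes is in brackets. The myelin, chaperone, immediate early and thalamus medians lie left of 0 at day 70, and the plaque-associated microglia median lies at 0.027 at day 70 and 0.35 at day 150.

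Cholesterol synthesis genes leaned higher. Brain cholesterol is made locally, mostly by glia and for myelin. Of 20 measured, 14 were higher with a median of 0.081. Fdft1, squalene synthase, read 8.89, 9.02, 9.003 and 9.18 against 9.28, 9.25, 9.23 and 9.15, a difference of 0.21, and Sqle, which acts next, differed by 0.19. Hmgcs1, at the head of the pathway, differed by 0.16. Control array 4 was high and TgCRND8 array 4 low in list mean (-0.0352, -0.0404, -0.0304 and 0.106 in controls, 0.103, 0.0848, 0.112 and -0.0127 in TgCRND8), and the groups overlapped. The median was -0.007 at day 80 and 0.19 at day 150, where 20 of 20 were higher. Without Control array 4 and TgCRND8 array 1, 5 of the 20 were lower at day 70 and the median was 0.10. Without Control array 1, 8 were lower, and without TgCRND8 array 3 the median was 0.055.

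Neuronal lists centred near 0. The medians were 0.015 for 19 excitatory neuron genes, -0.012 for 19 inhibitory neuron genes, 0.033 for 18 postsynaptic density genes and 0.012 for 15 genes of striatal projection neurons. Each of these 4 medians changed sign when some single array was left out. Gad1, the GABA-synthesising enzyme, read 10.45, 10.38, 10.12 and 10.56 against 10.19, 10.14, 10.21 and 10.06, a difference of -0.23 with control array 3 inside the TgCRND8 range. Dlx1, a transcription factor of interneurons, differed by -0.21. Receptor genes were mixed, with the kainate receptor gene Grik4 at -0.17 and the GABA receptor gene Gabra2 at 0.18. Among 8 genes of basal forebrain cholinergic neurons 6 were lower, and the vesicular acetylcholine transporter gene Slc18a3 differed by -0.19 at a dim level, or -0.11 without Control array 2. Of 26 ribosomal protein genes 21 were higher with a median of 0.071, which was 0.034 without Control array 1 and 0.13 without Control array 3. At day 80, 22 of the 26 were lower, with a median of -0.038. The 32 respiratory chain genes had a median of -0.0051.

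Genes of late-onset Alzheimer risk loci showed no lean, with 16 of 29 higher and a median of 0.012. Wwox, an oxidoreductase gene near such a locus, read 7.03, 6.97, 7.09 and 6.87 against 7.11, 7.20, 7.25 and 7.25 without overlap, a difference of 0.21, and differed by 0.04 at day 80 and 0.21 at day 150. Nqo1, a target of the oxidative stress factor NRF2, read 3.64, 3.40, 3.75 and 3.68 against 4.09, 3.81, 3.80 and 4.02, a difference of 0.31, while the 18 genes of its list had a median of -0.019. Brain endothelial, pericyte, meningeal and choroid plexus lists had medians of -0.029, -0.081, 0.033 and -0.016.

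The day 70 differences were also read at the other ages. Of the 267 genes on the higher side, 182 (68.2%) were higher at day 80 and 105 (39.3%) at day 150, against 50.9% and 50.1% of all genes. Of the 324 on the lower side, 177 (54.6%) were lower at day 80 and 157 (48.5%) at day 150, against 49.1% and 49.9%. At an unadjusted p under 0.05 in the same direction, 14 of the 267 (5.24%) and 7 of the 324 (2.16%) recurred at day 80, where 2.49% and 1.28% of all genes were higher and lower. At day 150 it was 13 (4.87%) and 6 (1.85%), against 1.97% and 2.4%. No gene reached an unadjusted p under 0.05 in 1 direction at all 3 ages. The genes on the higher side were mostly dim, and these shares were not set against genes of like level. The lower quartile of signal at day 80 was 3.19 to 3.32 on TgCRND8 arrays and 3.18 to 3.27 on controls. At day 150 it was 3.17 to 3.23 against 3.18 to 3.27. The part of this in the shares was not tested.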

How the data were processed

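Affymetrix mouse arrays measured forebrain RNA of 24 mice, 4 per genotype and age, 1 array each; the labels call them biological replicates, so p-values measure the spread between these mice. RNA was extracted with TRIzol and a column, reverse transcribed from oligo(dT) and labelled by transcription with biotin, per the labels' protocols. The values are the authors' deposited log2 signals of 45101 probe sets; the sources used here do not give the background correction, summary or normalization, and no other was applied. Of the probe sets, 34945 carried 1 gene symbol, 932 several, 9160 none, and 64 were controls. The brightest probe set of each symbol gave 18193 genes. Symbols are GEO's platform annotation; older ones were updated through gene identifiers, which matched for 34741 probe sets.

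A model of 6 group means over all 24 arrays was fitted with limma 3.58.1 in R 4.3.3 (18 residual and 7.47 prior degrees of freedom), with Benjamini-Hochberg adjustment over all genes at 0.05. It was tested on simulated data. The number of arrays limits the precision. The genes named are the 12 with the smallest p in each direction. Added were the 5 largest differences in each direction among non-overlapping genes at or above the median level. Each gene list gave up to 6 members at an unadjusted p under 0.05, or the first 2 in list order where there were none. A fixed list held glial, myelin, activity and amyloid genes with Prmt3, Rims1, Hspa5, Hspa1b, Fkbp5, Hmgcs1 and Xist. Other genes, among them Nell1, Pomc and list members beyond these rules, were chosen after their values were seen. The comparison, these naming rules with the fixed list, and the 51 lists (940 of 1040 members measured) were chosen with earlier results of these data known. Promoters are RefSeq windows of build GRCm38.p6, of which the 250 bases before the start were searched.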

Additional observations from a re-analysis of the deposited data

Results flagged for a closer look

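In 284 groups of 4 arrays examined (named genes and list means, by genotype, at day 70), 1 array lay apart from the other 3 in 20, by a gap past Dixon's 95% critical value. Chance alone flags about 1 in 20 groups.

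Control array 4 was the one apart for Xist (3.264 against 9.607 to 9.789) and Eif2s3y (5.047 against 2.519 to 2.729). It was also the array apart among controls for Csrnp1 at 6.372, Vim at 6.957, P2ry13 at 5.1 and Pdzd3 at 3.252, the last below the others. Its means of cholesterol synthesis genes (0.106) and thalamus genes (0.155) were high relative to the control average. Control array 3 was low for Prmt3 at 6.622, above every TgCRND8 array, and it lay above the other controls for Akap4 at 4.158, Bcas1 at 10.59 and Vamp1 at 9.815. Its mean of brainstem genes was high at 0.171. Control array 2 was high for Slc18a3 at 3.522.

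Among TgCRND8 arrays, array 3 was low for the microglial gene Mpeg1 at 4.904, Sim1 at 3.272 and Bst2 at 4.382. Array 2 was high for Hmgcs1 at 10.78 and low in its mean of ependymal genes at -0.104. Array 4 was low in its mean of erythroid genes at -0.1711.

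The genotype differences of Gfap and Cst7 were larger at day 150 than at day 70 by 1.316 and 1.522 log2, and both passed the interaction test of limma with Benjamini-Hochberg adjustment. In a pair of genes the groups separated in opposite directions at different ages. Sox6 differed by -0.2503 at day 70 with all TgCRND8 arrays below the controls, and by 0.14 at day 150 with all above. Cc2d1b differed by 0.2515 at day 70 with all above, and by -0.19 at day 80 with all below. For Sox6 and Cc2d1b a difference between ages was not shown, since neither passed that test (adjusted p = 0.63 and 0.9998 by limma).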

How the results depend on the processing

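No gene had an adjusted p under 0.05 by limma with Benjamini-Hochberg adjustment under any of the alternatives run, nor under 0.10 in the main analysis; with array weights the smallest was 0.0718, for Prmt3. These were quantile normalization, median centring, the dimmest 40% of genes left out, averaging the probe sets of each gene, the day 70 arrays alone, trend and robust settings, array weights, Xist as a covariate, the replicate block and each array left out. The number of genes at an unadjusted p under 0.05 was 591 and became 337 with the dimmest 40% left out, which tests fewer genes, and 1047 with array weights; the cause of the latter was not tested. Leaving out 1 array at a time gave 465 to 812. The count of non-overlapping genes, 429, became 236 with the dimmest 40% left out, 748 to 1236 with 1 array left out, and 1477 without Control array 4 and TgCRND8 array 1, an alternative chosen after seeing the data. Fewer arrays make it easier for groups not to overlap by construction. The difference of Bcas1 turned to 0.02678 with the mean of all its probe sets. Among the 72 named genes at an unadjusted p under 0.05 it was the only one to change sign. Of the 59 other named genes, 39 changed sign under at least 1 alternative, in 136 of 1046 values, and 20 did not. Of 50 list medians 29 changed sign under at least 1 alternative and 21 did not.

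The replicate block, with the replicate number as a term, gave 0 genes at an adjusted p under 0.05 and 717 at an unadjusted p under 0.05. Deviations of same-numbered arrays correlated at 0.292, 0.031, 0.134 and -0.321. The TgCRND8 array with the highest correlation bore the same number for control arrays 1 and 2, but not for 3 and 4. So few arrays cannot settle whether same-numbered arrays belong together, and the main model did not pair them.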
